A study of Mus musculus with 10 samples.

Results

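Keratins are the proteins of the intermediate filaments of epithelial cells. A filament is built from pairs of 1 type I and 1 type II keratin, and the pair in use marks the kind of epithelium: Krt8 with Krt18 in simple, single-layered epithelia and the earliest embryonic epithelium, Krt5 with Krt14 in the basal layer of the epidermis, Krt1 with Krt10 above it, and further sets in the hair follicle and the hair shaft. Fibroblasts are mesenchymal cells whose main intermediate filament protein is vimentin, and their passage through an epithelial-like state is a known early step of reprogramming to pluripotency. The genes described here are the 50 mouse genes whose symbol is Krt followed by digits only, out of 49943 genes on chromosomes 1 to 19, X and Y. They were picked by name alone, and the chromatin near them was followed through reprogramming.

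ATAC-seq, in which a transposase inserts adapters into open DNA, was run on 10 libraries from mice or cells of the strain C57BL/6 x 129. MEF libraries came from embryonic fibroblasts of genotype OKSM Col1a1/M2rtTA ROSA26 in MEF medium without doxycycline: the cassette of Oct4, Klf4, Sox2 and Myc is in these cells but not induced. DAY3, DAY6 and DAY9 were the same genotype after 3, 6 and 9 days in ESC medium with 1 µg/ml doxycycline and 50 µg/ml ascorbic acid. Sorting for SSEA1, a cell-surface marker, was done for DAY6 and DAY9 cells only, so the sort and the 2 later days cannot be told apart. ESC was the embryonic stem cell line V6.5, with no cassette, in ESC medium on irradiated feeder cells; how many feeder cells entered these libraries is not given in the sources used here. Each stage has 2 libraries, described as biological replicates, and 1 batch name covers all 10. Lists held 45497 (DAY3 replicate 2) to 88980 peaks (ESC replicate 2), and read depths are not given in the sources used here.

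The 50 genes lie in 2 clusters of 25. The chromosome 11 cluster (mm10, 99232761 to 100269951, 1037.2 kb) holds the type I genes, and the chromosome 15 cluster (101348315 to 102032026, 683.7 kb) holds the type II genes and Krt18, the 1 type I gene outside the chromosome 11 cluster. By the literature's usual grouping, 5 are simple epithelial keratins (Krt7, Krt8, Krt18, Krt19 and Krt20), 18 are keratins of stratified epithelia and 22 are keratins of the hair and hair follicle. The last 2 classes together are called skin keratins below, 40 genes in all, although some of them serve in the cornea, mouth or oesophagus. Another 5 (Krt23, Krt42, Krt88, Krt90 and Krt222) were left unplaced. In this packed arrangement 37 of the 50 windows (the gene with 5 kb on either side) overlap the window of another member, so 1 peak can count for 2 genes.

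The starts of Krt8 and Krt18 lie 23.9 kb apart and point away from each other, and Krt13 has 2 starts in the RefSeq promoter table. Among the 35 keratins in that table, these 3 held every start that a peak covered in both libraries of a stage, so the 250 bases before each of those 4 starts (mm10, RefSeq GRCm38.p6, read 5′ to 3′ along the gene's strand) are shown. Capitals mark TGANTCA, the motif bound by the AP-1 factors.

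Krt8, chr15:102004343-102004592, minus strand: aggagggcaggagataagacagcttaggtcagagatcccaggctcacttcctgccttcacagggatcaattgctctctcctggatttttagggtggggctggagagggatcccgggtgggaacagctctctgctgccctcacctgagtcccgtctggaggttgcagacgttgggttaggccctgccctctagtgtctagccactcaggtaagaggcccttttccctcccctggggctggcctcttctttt
Krt18, chr15:102027966-102028215, plus strand: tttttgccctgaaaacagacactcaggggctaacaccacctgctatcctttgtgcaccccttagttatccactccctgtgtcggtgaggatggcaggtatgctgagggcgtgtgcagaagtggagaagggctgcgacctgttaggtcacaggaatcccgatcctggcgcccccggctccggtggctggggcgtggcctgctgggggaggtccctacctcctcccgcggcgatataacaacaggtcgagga
Krt13 upstream start, chr11:100121567-100121816, minus strand: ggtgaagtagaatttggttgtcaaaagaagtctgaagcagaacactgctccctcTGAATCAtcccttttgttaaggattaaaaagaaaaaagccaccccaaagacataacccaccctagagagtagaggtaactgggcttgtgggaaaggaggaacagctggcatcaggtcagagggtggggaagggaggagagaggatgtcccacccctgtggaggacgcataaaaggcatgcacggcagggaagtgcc
Krt13 downstream start, chr11:100120578-100120827, minus strand: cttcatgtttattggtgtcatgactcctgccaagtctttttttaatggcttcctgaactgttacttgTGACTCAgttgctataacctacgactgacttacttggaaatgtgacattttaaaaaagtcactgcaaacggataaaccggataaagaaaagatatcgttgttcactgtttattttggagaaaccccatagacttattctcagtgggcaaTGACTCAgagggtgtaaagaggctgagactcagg

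For comparison, 4 short motifs were searched on both strands of the 250 bases before each of 36 keratin starts (35 genes matched the table) and of all 32851 starts in it. Matches of different motifs were counted even where they shared bases. TATAAA, the core promoter box, was in 16 of 36 keratin promoters (44.4%) against 12.4% of all promoters, and in 15 of the 29 skin keratin promoters (51.7%). GGGCGG, bound by Sp and Klf factors, was in 2 keratin promoters (5.6%) against 32.7%. CACACCC, bound by Klf factors, was in 4 (11.1%) against 6.9%, and TGANTCA was in 2 (5.6%), both of them the starts of Krt13, against 6.7%. At Krt13 its copies stood at bases -196 to -190 before the upstream start and at -183 to -177 and -34 to -28 before the downstream start. Keratin promoters (the 250 bases before and 50 after the start) had a median GC content of 48.8% (39.7% to 66.3%), against 52.7% over all promoters. Those of Krt8 (58.0% GC, 6 CpG) and Krt18 (61.3% GC, 17 CpG) lay above both medians in GC and held none of the 4 motifs in these windows.

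Keratin genes had peaks less often than genes in general at every stage, and most often at DAY9. Of the 50, MEF libraries listed a peak near 23 and 24, DAY3 near 13 and 17, DAY6 near 20 and 23, DAY9 near 28 and 27, and ESC near 17 and 19. In both libraries of a stage a peak was listed for 17 genes in MEF (34.0%, against 50.8% of all genes), 11 at DAY3 (22.0%, against 46.0%), 20 at DAY6 (40.0%, against 51.6%), 25 at DAY9 (50.0%, against 57.3%) and 13 in ESC (26.0%, against 56.8%). The DAY9 share came nearest to that of all genes, and the ESC share lay farthest below it. The length of the lists did not follow this order: ESC had the 2 longest lists and DAY3 the 2 shortest. By peak numbers, however, the DAY9 lists were the most complete. They held 75.9% and 75.8% of their numbers, against 58.2% (DAY6 replicate 2) to 70.8% (ESC replicate 2) in the other libraries. The part of these gaps in the DAY9 maximum was not tested. With every list shortened to its 45497 best peaks the counts were 8 in MEF, 11 at DAY3, then 16 at DAY6, 20 at DAY9 and 7 in ESC, so DAY9 stayed highest and MEF was then below DAY3.

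In all, 41 of the 50 genes had a peak in at least 1 library, 32 in both libraries of at least 1 stage and 4 (Krt10, Krt78, Krt82 and Krt222) in all 10. The 9 genes with no peak were Krt4, Krt23, Krt24, Krt32, Krt35, Krt40, Krt71, Krt73 and Krt87, most of them keratins of the tongue, oesophagus, hair shaft or inner root sheath. Another 9 genes had peaks in single libraries but never in both of a stage: Krt2, Krt9, Krt15, Krt16, Krt27, Krt31, Krt34, Krt39 and Krt83.

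**Figure D1:**
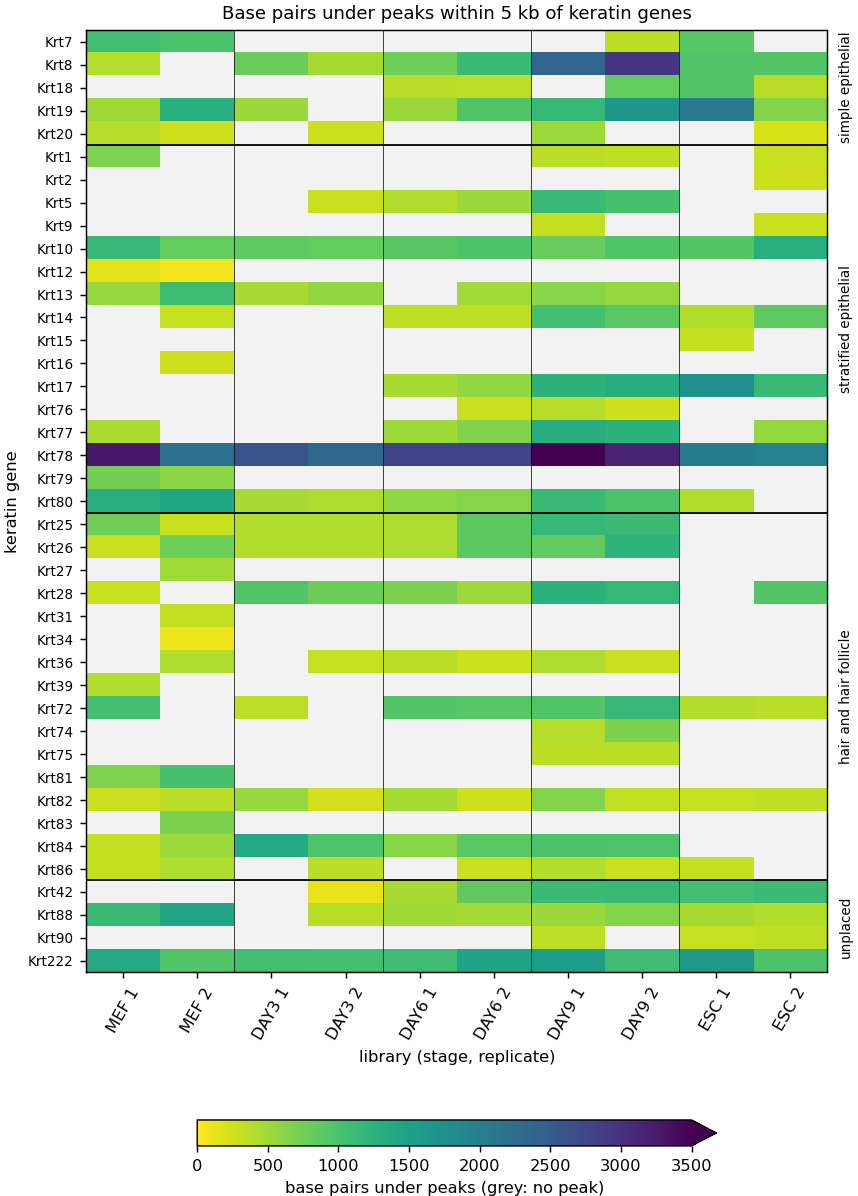
Base pairs under peaks in the window of each of the 41 keratin genes with a peak (rows, grouped by class), in each of the 10 libraries (columns). Colour gives base pairs on a linear scale, with Krt78 in DAY9 replicate 1 above its top, and grey cells have no peak; the DAY9 columns hold the most filled cells and the hair keratin block is almost empty in ESC.

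The skin keratins were likewise called most often at DAY9 and least often in ESC. Of the 40, both libraries listed a peak for 12 in MEF, 9 at DAY3, then 14 at DAY6, 20 at DAY9 and 6 in ESC. Over single libraries the numbers were 17 and 19 in MEF (18.0 ± 1.41, SD, n = 2), 10 and 12 at DAY3, 14 and 17 at DAY6 (15.5 ± 2.12, SD, n = 2), 21 and 20 at DAY9, and 9 and 11 in ESC (10.0 ± 1.41, SD, n = 2). The DAY9 libraries lay above those of every other stage without overlap, and the ESC libraries below those of MEF, DAY6 and DAY9. Of the 22 keratins of hair and hair follicle, both libraries listed 10 at DAY9 and 2 in ESC (Krt72 and Krt82), and of the 18 keratins of stratified epithelia 10 at DAY9 and 4 in ESC. Among the 5 simple epithelial keratins the counts were 3 in MEF, 1 at DAY3, then 3 at DAY6, 2 at DAY9 and 3 in ESC.

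**Figure D2:**
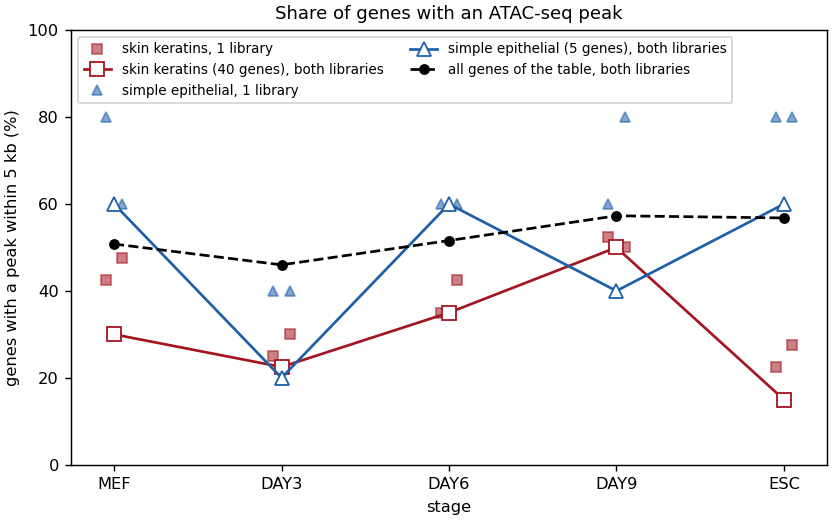
Percent of genes with a peak within 5 kb (vertical axis) at each stage (horizontal axis). Open symbols joined by lines give genes called in both libraries, filled red and blue symbols the single libraries, and black circles all 49943 genes; the skin keratins are at 9 of 40 at DAY3, 20 at DAY9 and 6 in ESC, where 56.8% of all genes are called.

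In base pairs under peaks per gene, the skin keratins had 317.6 and 303.4 in the MEF libraries, 209.8 and 197.6 at DAY3, 248.6 and 304.2 at DAY6, 483.7 and 456.6 at DAY9, and 170.6 and 207.4 in ESC. Over all genes the same measure was 950.1 and 749.9 in MEF, 678.7 and 679.1 at DAY3, 908.0 and 779.5 at DAY6, 1025.8 and 1032.5 at DAY9, and 999.5 and 1057.1 in ESC. Both measures were low at DAY3 and high at DAY9, and they parted in ESC, where all genes stayed near their DAY9 level and the skin keratins were at their lowest or next to it. The median keratin gene was 7429 bp long and the median of all genes was 5956 bp.

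Krt8 and Krt18 were both called in ESC and neither in MEF. They encode the type II and type I partners of the simple epithelial filament. Krt8 had 383 and 0 bp under peaks in MEF, 796 and 471 at DAY3, 775 and 1121 at DAY6, 2354 and 2948 at DAY9, and 957 and 933 in ESC. The MEF libraries lay below all others, those of DAY9 above all others, and the ESC libraries fell inside the range of DAY6. Krt18 had 0 and 0 bp in MEF and at DAY3, 372 and 355 at DAY6, 0 and 831 at DAY9, and 934 and 379 in ESC. Both genes were thus called at DAY6 and in ESC, the stage with the fewest skin keratins. At DAY9, the stage with the most, Krt8 was at its highest and Krt18 had a peak in 1 library only. No test compared the pair with the skin keratins as a list. In bulk chromatin a site open in fewer cells and a site less open in each cell cannot be told apart.

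**Figure D3:**
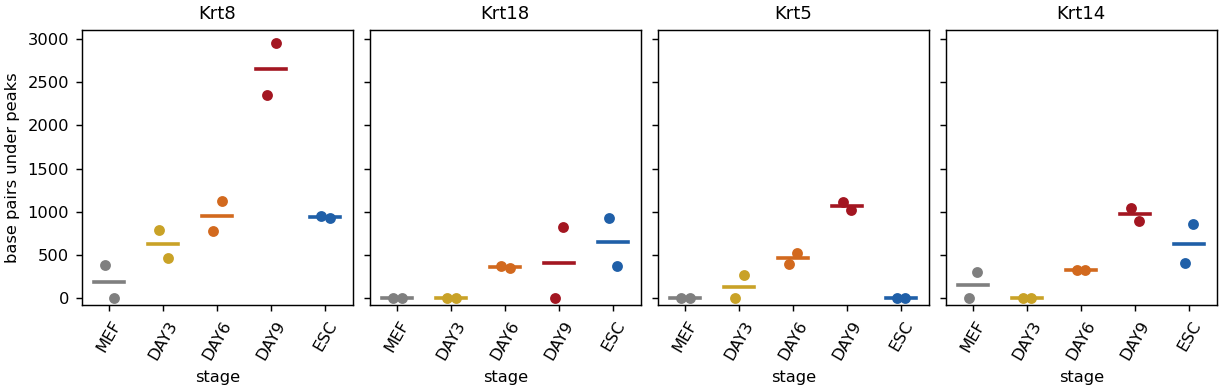
Base pairs under peaks (vertical axis, from the gene and 5 kb on either side) at each stage for Krt8, Krt18, Krt5 and Krt14. Points are libraries and bars the mean of each pair; Krt8 is highest at DAY9 (2354 and 2948 bp) and stays at 957 and 933 bp in ESC, where Krt5 is at 0 in both.

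At Krt8 (chr15:101996711-102004342, minus strand, gene 16691) 1 region inside the gene was open at nearly all stages. It spans chr15:102002865-102003873, from 469 to 1477 bp after the start, and was listed in 9 of 10 libraries. Its fold in the authors' lists was 3.85 in MEF replicate 1, 5.8 and 5.77 at DAY3, 7.55 and 6.79 at DAY6, 5.83 and 6.33 at DAY9, and 9.23 and 5.09 in ESC; MEF replicate 2 listed no peak, and 3 peak numbers are missing between its flanking peaks, 28.9 kb apart, so that absence is uncertain. By fold, DAY9 does not stand out. The fold divides by local background, however, and at Krt8 the expected pileup at DAY9 was 28.86 and 29.0, against background pileups of 7.327 and 7.372 for those libraries. Summit pileup over the background of the library gave 4.7 in MEF replicate 1, 8.7 and 8.7 at DAY3, 15.6 and 19.8 at DAY6, 23.6 and 25.6 at DAY9, and 18.4 and 6.8 in ESC. On this scale the DAY9 libraries were above all others, and the ESC libraries differed from each other by more than the pairs of DAY3, DAY6 and DAY9.

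More of the Krt8 locus was listed at DAY9 than at any other stage. The start itself (region chr15:102004184-102004638) had peaks in both DAY9 libraries (fold 3.52 and 3.56, pileup over library background 14.2 and 14.4) and in ESC replicate 1 (4.19 and 8.3), and in no other. Upstream of it chr15:102005503-102006105 (fold 4.05 and 4.23) and chr15:102006347-102006681 (2.08 and 1.93) were listed in the DAY9 libraries alone, as was chr15:101995759-101996209 beyond the end of the gene (3.45 and 2.78), which also lies in the Krt78 window. The nearest gene of both upstream regions is Gm36026, 38 bp from the former and overlapping the latter. Both count in the base pairs of Krt8. Near the Krt8 start no peak numbers are missing from the DAY9 lists, but 1 and 3 are missing from those of DAY3, 1 and 1 from DAY6, 3 from MEF replicate 2 and 1 from ESC replicate 1, and their part in this difference was not tested. A region further inside the gene, chr15:102000070-102000468, 3874 to 4272 bp after the start, was listed in DAY6 replicate 2 (4.13) and DAY9 replicate 2 (2.46). This region also lies in the Krt78 window.

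At Krt18 (chr15:102028216-102032026, plus strand, gene 16668) the region of interest was the start itself, chr15:102027944-102028959. Its fold was 3.37 and 3.61 at DAY6, 5.73 in DAY9 replicate 2, and 4.83 and 3.87 in ESC, with no peak listed in MEF, DAY3 or DAY9 replicate 1. Summit pileup over library background was 4.1 and 4.7 at DAY6, 6.4 in DAY9 replicate 2 and 6.3 and 4.4 in ESC, so the stages with a peak did not separate. The missing DAY9 peak is uncertain: the listed peaks on either side in DAY9 replicate 1 are 33.6 kb apart, and 2 peak numbers between them are missing from the list. Such gaps also surround the Krt18 start in MEF (1 missing number in each library) and DAY3 (1 and 3).

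**Figure D4:**
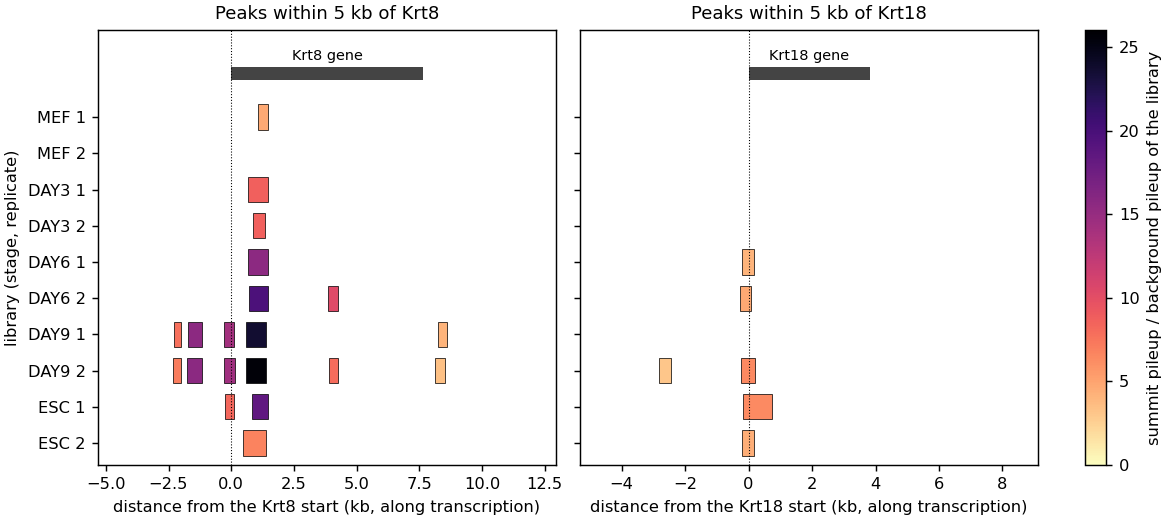
Peaks listed within 5 kb of Krt8 (left) and Krt18 (right), as distance in kb from the gene's start along transcription, 1 row per library. Bar colour is the summit pileup divided by the background pileup of the library; at Krt8 the DAY9 rows hold the most peaks and the darkest bar (23.6 and 25.6), and at Krt18 the start has a peak in both DAY6 and both ESC libraries.

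In the exact permutation test over all 38811 genes with a peak, stage accounted for 96.9% of the sum of squares of covered base pairs at Krt8 (p = 0.0238, adjusted p = 0.356) and 78.0% at Krt18 (p = 0.193, adjusted p = 0.477). The DAY9 libraries were averaged there, which hides the spread between 0 and 831 bp at Krt18. With 10 libraries counted separately, the share at Krt18 was 56.4% (p = 0.222, adjusted p = 0.351, exact permutation test). At Krt8 it was 95.1% (p = 0.00635, adjusted p = 0.0829, exact permutation test). That setting treats the close DAY3 and DAY9 replicates as separate samples. With 8 samples and 420 arrangements the smallest p is 0.00238, and no gene of the 38811 passed an adjusted p of 0.05 (0.0%; the lowest was 0.353). Of 41 keratins tested, 8 had an unadjusted p under 0.05 (19.5%, against 12.4% of all genes): Krt5, Krt8, Krt17, Krt42, Krt80, Krt84, Krt88 and Krt90. The median share between stages was 74.9% for the keratins and 76.1% for all genes. By this measure keratin windows varied with stage about as much as those of other genes, and the calls below are descriptions.

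Between MEF and DAY9, 6 keratins were gained, meaning a peak in both DAY9 libraries and neither MEF library (12.0%, against 6.4% of all genes): Krt5, Krt17, Krt42, Krt74, Krt75 and Krt76. Lost by the reverse rule were 3 (6.0%, against 3.93%): Krt12, the keratin of the corneal epithelium, Krt79, of the hair canal and sebaceous duct, and Krt81, of the hair shaft. The 3 lost were 1 with windows of 2.5 kb or with each peak given to its nearest gene, and the 6 gained were 11 with peaks of a score of at least 133, the pooled median. Between MEF and ESC 4 were gained (8.0%, against 7.16%), namely Krt17, Krt18, Krt42 and Krt90, and 7 were lost (14.0%, against 3.54%), namely Krt12, Krt13, Krt25, Krt26, Krt79, Krt81 and Krt84. All 7 lost genes are skin keratins, which were 12 of the 17 members called in MEF. Among them Krt25 and Krt26 were called in MEF through a region they share. The count of 7 was 3 with windows of 2.5 kb, with lists of equal length, with peaks of that score, and with each peak given only to its nearest gene. Without MEF replicate 1 the counts against MEF were 11 gained and 8 lost at DAY9 and 6 gained and 13 lost in ESC.

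Between DAY9 and ESC 9 keratins were lost (18.0%, against 2.96% of all genes) and 0 gained (against 4.06%). The lost genes are Krt5, Krt13, Krt25, Krt26, Krt36, Krt74, Krt75, Krt76 and Krt84, all skin keratins. Skin keratins were 20 of the 25 members called at DAY9. Krt25 and Krt26 were called there through regions they share, so these are not 9 separate losses. The count of lost genes was 6 to 10 under the alternatives with both libraries of each stage. Of them Krt5, Krt74, Krt75 and Krt76 had DAY9 peaks and no MEF or ESC peak (8.0%, against 1.5% of all genes); the count was 2 with windows of 10 kb, and the Krt76 call rests on a different region in each DAY9 library. At DAY9 the fold was 7.42 and 7.73 at Krt5, 4.2 and 5.14 at Krt74, but only 3.12 and 4.06 at Krt75 and 4.32 and 2.63 at Krt76. The background pileup of the lists also differed, with 7.327 and 7.372 at DAY9, 3.415 and 8.322 in MEF, and 3.483 and 5.458 in ESC. The part of these background levels in the calls was not tested. These comparisons share the DAY9, MEF and ESC libraries with each other.

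Krt5, the type II keratin of basal epidermal cells, had 0 and 0 bp under peaks in MEF, 0 and 277 at DAY3, 399 and 531 at DAY6, 1120 and 1017 at DAY9, and 0 and 0 in ESC. The DAY9 libraries lay above those of DAY6 and these above all others, with no overlap. Stage accounted for 99.2% of the sum of squares (p = 0.00714, adjusted p = 0.353, exact permutation test). All of it came from 1 region 1876 bp beyond the end of the gene, chr15:101704003-101705193, with a fold of 3.03 in DAY3 replicate 2, 6.06 and 4.21 at DAY6, and 7.42 and 7.73 at DAY9. No library listed a peak at the Krt5 start.

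Its type I partner Krt14 still had peaks in both ESC libraries. Its values were 0 and 305 bp in MEF, 0 and 0 at DAY3, 329 and 333 at DAY6 (from a different region in each library), 1048 and 897 at DAY9, and 405 and 862 in ESC. Both DAY9 libraries were above all others, though ESC replicate 2 came close to DAY9 replicate 2. The region inside Krt14, chr11:100203422-100203886, had a fold of 4.81 in DAY6 replicate 2, 3.93 and 3.84 at DAY9 and 5.8 and 2.82 in ESC. In the suprabasal pair Krt10 was open in all 10 libraries, with 808 bp (DAY9 replicate 1) to 1298 bp (ESC replicate 2), and Krt1 had 682 and 0 bp in MEF, 366 and 330 at DAY9, 0 and 296 in ESC and none between.

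Krt17, a keratin of hair follicles and injured epidermis, and its neighbour Krt42 had peaks in both libraries of DAY6, DAY9 and ESC and in neither of MEF. Krt17 had no peak in MEF or DAY3, 460 and 566 bp at DAY6, 1234 and 1317 at DAY9, and 1726 and 1124 in ESC. Krt42 had 0 and 0 bp in MEF, 0 and 114 at DAY3, 460 and 857 at DAY6, 1121 and 1126 at DAY9, and 1046 and 1115 in ESC. In both genes every DAY9 and ESC library was above every earlier one. The region chr11:100261762-100262718, 164 bp from Krt42 and within 5 kb of Krt17, carried much of this. Its fold was 5.84 and 3.61 at DAY6, 9.59 and 10.42 at DAY9, and 8.7 and 5.91 in ESC.

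Krt13, a keratin of the oral and oesophageal lining, had peaks at a different one of its 2 starts in MEF than in reprogramming. The MEF peaks (chr11:100120325-100121012, fold 4.53 and 4.24) covered the downstream start and were listed in no other stage. The reprogramming peaks (chr11:100121350-100122057) covered the upstream start, with a fold of 5.66 and 8.13 at DAY3, 7.51 in DAY6 replicate 2 and 8.21 and 7.52 at DAY9, and no peak in MEF, DAY6 replicate 1 or ESC. The sequences of both starts shown above each hold TGANTCA, and a match is a description of the letters only. In base pairs, Krt13 had 552 and 1090 in MEF, 454 and 572 at DAY3, 0 and 479 at DAY6, 627 and 558 at DAY9 and 0 and 0 in ESC, so the sum over the window does not show which start was covered.

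The starts in the promoter table, which lacks 15 of the 50 members, were seldom under a peak. Of these 36 keratin promoters 1 was covered in both libraries in MEF (2.8%, against 38.4% of all 32851 promoters; Krt13, downstream), 1 at DAY3 (2.8%, against 38.5%; Krt13, upstream), 1 at DAY6 (2.8%, against 41.4%; Krt18), 2 at DAY9 (5.6%, against 44.3%; Krt8 and Krt13, upstream) and 1 in ESC (2.8%, against 43.2%; Krt18). At no other keratin start in the table did both libraries of a stage list a peak. Starts of the members outside the table, Krt17, Krt19, Krt80 and Krt88 among them, were not examined. Regions that span the higher-coordinate edge of the gene model, where a minus-strand gene starts, were listed in 8 libraries each at Krt19 and Krt80. All chromosome 11 keratins in the promoter table are on the minus strand.

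Keratins of the inner root sheath of the hair follicle had like values where they share peaks. Krt25 had 760 and 294 bp in MEF, 403 and 410 at DAY3, 432 and 878 at DAY6, 1162 and 1112 at DAY9 and 0 and 0 in ESC. Krt26 had 289 and 773, 403 and 410, 432 and 878, 843 and 1222, and 0 and 0 in the same order. The regions they share lie inside the gene Gm32502, and 1 of them (chr11:99325223-99325767, fold 4.56 and 5.74 at DAY9) was listed only at DAY6 and DAY9. Krt28 had 289 and 0 bp in MEF, 950 and 782 at DAY3, 693 and 497 at DAY6, 1247 and 1174 at DAY9, and 0 and 937 in ESC. Its main region, chr11:99369097-99369697 inside the gene, had a fold of 10.1 and 10.75 at DAY6 and 9.94 and 10.73 at DAY9, and was listed at DAY3 (4.92 and 5.26) but in neither MEF library.

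Among other hair keratins, Krt84 had 318 and 513 bp in MEF, 1371 and 969 at DAY3, 622 and 897 at DAY6, 977 and 965 at DAY9, and 0 and 0 in ESC (95.8% between stages, p = 0.019, exact permutation test). Krt36 was listed from DAY3 replicate 2 to DAY9 (417 and 283 bp there), once in MEF and not in ESC. Krt75, a keratin of the companion layer, was listed at DAY9 alone (361 and 360 bp), as was Krt74 (392 and 685 bp), which the table gives as a transcribed pseudogene. Krt76 had 300 bp in DAY6 replicate 2 and 376 and 249 bp at DAY9; its peaks were 2 different regions, 1 in each DAY9 library. Krt72 (400 and 364 bp in ESC) and Krt82 were the hair keratins called in ESC. Krt82 had a peak in all 10 libraries but not at 1 site: from MEF to DAY9 it was chr15:101536028-101536759, nearer to Krt84 and without a peak in ESC, and in ESC it was chr15:101553136-101553522 inside Krt90, also listed in DAY9 replicate 1. Krt86 was called in MEF and DAY9, in MEF from a different region in each library. Of all the stage calls of members, 3 rested on no region shared by both libraries: Krt86 in MEF, Krt14 at DAY6 and Krt76 at DAY9.

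Some keratins had more base pairs under peaks in MEF than at DAY3 to ESC. Krt79 had 733 and 606 bp in MEF and Krt81 had 670 and 1013 bp, and neither had a peak in the other 8 libraries. Krt12 had 148 and 66 bp in MEF alone, from a region nearer to Krt20. Krt7, a simple epithelial keratin of ducts and bladder, had 1066 and 987 bp in MEF, then only 368 in DAY9 replicate 2 and 906 in ESC replicate 1, from regions that MEF did not list. Krt80, a keratin laid down widely during epithelial differentiation, had 1306 and 1433 bp in MEF, 454 and 431 at DAY3, 596 and 631 at DAY6, 1112 and 975 at DAY9, and 404 and 0 in ESC (94.6% between stages, p = 0.019, exact permutation test). Its MEF libraries were the highest, its ESC libraries the lowest, and DAY9 came between MEF and the others. Krt88 had 1108 and 1432 bp in MEF and 0 to 650 bp in every later library, but it was not confined to MEF. Its own region, chr15:101453164-101453813, was listed in 9 libraries, with a fold of 3.72 and 3.58 in MEF, 9.74 and 6.93 at DAY9 and 7.14 and 4.49 in ESC, and the further MEF base pairs came from regions shared with Krt81.

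Krt19, a simple epithelial keratin and the smallest of the family, had 503 and 1306 bp in MEF, 525 and 0 at DAY3, 530 and 948 at DAY6, 1154 and 1650 at DAY9 and 2043 and 655 in ESC, and these stages overlap. Its most often listed region, chr11:100145723-100146564, spans the higher-coordinate edge of the gene model at 100145926, where a minus-strand gene starts. This region was listed in 8 libraries, with a fold of 2.67 in MEF replicate 2, 4.44 in DAY3 replicate 1, 5.39 and 7.21 at DAY6, 4.32 and 4.61 at DAY9, and 4.26 and 2.94 in ESC. Krt19 also held a region of MEF alone (chr11:100147243-100148035, fold 7.29 and 3.87) and another inside the gene (chr11:100144837-100145676) listed from DAY6 replicate 2 on, with a fold of 6.97 and 3.25 in ESC. Krt20 of the gut was called in MEF alone. Krt77 had 443 and 0 bp in MEF, none at DAY3, 496 and 663 at DAY6, 1313 and 1233 at DAY9 and 0 and 553 in ESC, with the DAY9 libraries above all others. Krt90 was called in ESC (306 and 333 bp) and listed in DAY9 replicate 1 (350 bp), in a region that also lies in the Krt82 window. Krt78, the longest gene of the family at 50.62 kb, had 3278 and 2178 bp in MEF, 2598 and 2325 at DAY3, 2793 and 2798 at DAY6, 3623 and 3150 at DAY9, and 2015 and 1968 in ESC. These base pairs enter the means of the skin keratins. Except for the MEF peaks shared with Krt79, all its peaks lay upstream of its only start in the promoter table. No library listed a peak at that start. The upstream peaks lie inside the gene model of Krt78, apart from a region inside Krt8. Krt222 was open in all libraries through a region inside the neighbouring gene Smarce1.

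Merged over the libraries, the keratin windows (828.9 kb in all) held 82 peak regions of the 208851 in the genome. Both MEF libraries listed 17 of them (20.7%, against 22.1% of all regions), both DAY3 libraries 14 (17.1%, against 16.9%), DAY6 20 (24.4%, against 21.7%), DAY9 36 (43.9%, against 30.8%) and ESC 17 (20.7%, against 28.2%). Regions of both DAY9 libraries and no MEF or ESC library were 10 (12.2%, against 7.71%), and regions of both MEF libraries alone were 7 (8.5%, against 8.32%). No region was listed in both ESC libraries alone (0, against 7.91%). The 8 regions of ESC without MEF, at Krt14, Krt17, Krt18, Krt19, Krt42, Krt78, Krt17 with Krt42, and Krt82 with Krt90, had each been listed in at least 1 DAY6 or DAY9 library. Both clusters had their maximum at DAY9, with 15 of 38 regions on chromosome 11 and 21 of 44 on chromosome 15.

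**Figure D5:**
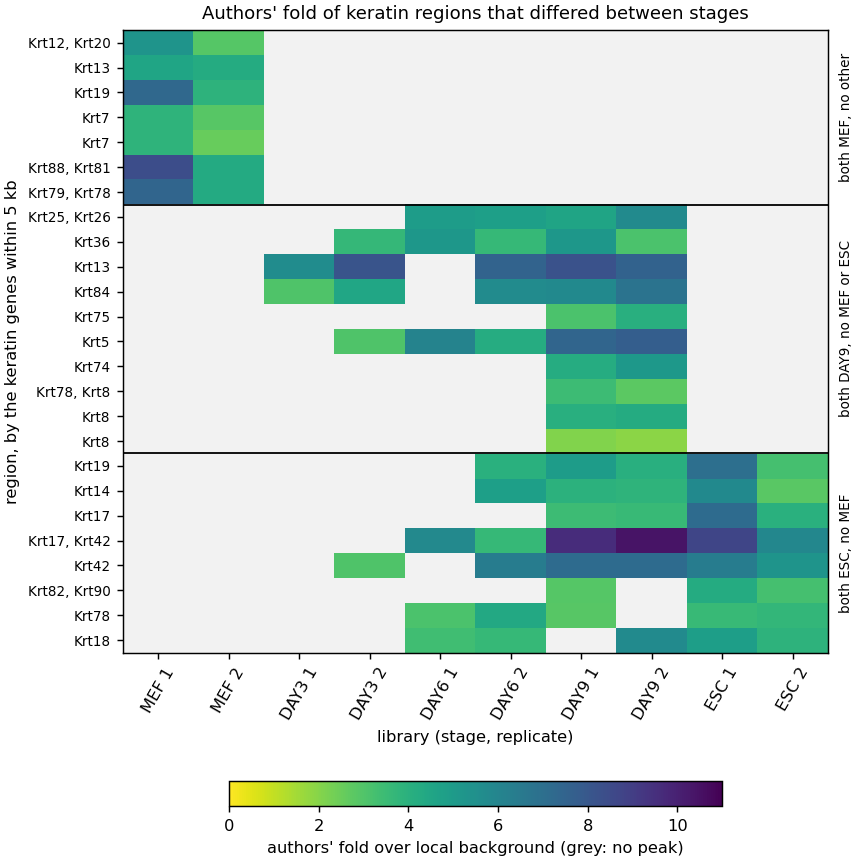
The authors' fold in each library (columns) for the 7 keratin regions of MEF alone (top), the 10 of DAY9 without MEF or ESC (middle) and the 8 of ESC without MEF (bottom), each row named by the genes within 5 kb. Grey cells have no listed peak and the colour scale is linear; the highest fold, 10.42, is in DAY9 replicate 2 at the region of Krt17 and Krt42, and the middle block includes 3 rows near Krt8.

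Genes of related function show what the keratins had beside them. Of 16 other intermediate filament genes, vimentin and the lamins among them, 11 were called in MEF, 12 at DAY3 and 14 at DAY6. All 16 were called at DAY9 and in ESC. None was gained or lost between any 2 of MEF, DAY9 and ESC, since MEF replicate 1 listed a peak for all 16. Of 21 genes of the desmosome and hemidesmosome, which anchor keratin filaments to the membrane, 20 or 21 were called at each stage. Of 16 epithelial transcription factors 11 were called in MEF, 14 at DAY3, then 16 at DAY6, 16 at DAY9 and 15 in ESC. Ehf had no peak in MEF, 2838 and 2665 bp at DAY3, 3916 and 2762 at DAY6, 4769 and 5409 at DAY9 and 2464 and 798 in ESC. Zfp750, a regulator of epidermal differentiation, had none in MEF or DAY3, 931 and 569 bp at DAY6, 964 and 911 at DAY9 and 917 and 646 in ESC. Ovol1 reached 1750 and 1862 bp at DAY9 and had 401 and 0 in ESC.

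Marker lists moved with the stages. Fibroblast markers called in both libraries were 8 of 8 in MEF, 7 at DAY3, then 5 at DAY6, 5 at DAY9 and 4 in ESC (Col6a3 and Postn were lost between MEF and ESC), and pluripotency markers were 3, 3, 7, 8 and 8 of 8 (Prdm14 and Sall4 were gained). Keratinocyte markers were 6, 4, 6, 6 and 3 of 8: their summed base pairs were 6347 and 4760 in MEF, 4412 and 4330 at DAY3, 7024 and 5943 at DAY6, 8714 and 9616 at DAY9, and 5918 and 5017 in ESC, highest at DAY9. Among these Flg was at 0 in all 10 libraries, Ivl was listed in MEF alone (361 and 382 bp), Sprr1a had 1027 and 1320 bp at DAY9 and 0 in ESC, and Krtdap had 1311 and 1262 bp at DAY9 and 912 and 0 in ESC. Their part in the keratin results was not tested. Trophoblast markers were 7, 7, 7, 7 and 8 of 8, and their summed base pairs were 8850 and 7067 in MEF, 7396 and 7556 at DAY3, 13141 and 11505 at DAY6, 16839 and 17012 at DAY9, and 20730 and 20680 in ESC. In summed base pairs this list was thus higher in every library from DAY6 on than in MEF and DAY3. Within it Hand1 had 308 and 307 bp in MEF, none at DAY3, DAY6 or DAY9, and 848 and 1275 in ESC. Elf5, Gata3, Tfap2a and Tfap2c are also in the list of epithelial transcription factors. Trophoblast cells use Krt8 and Krt18, and the part of this list in the values of Krt8 and Krt18 was not tested.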

How the data were processed

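ATAC-seq peak lists of 10 libraries, 2 for each of 5 stages, were used as deposited. The deposited lists have no header and the layout of narrowPeak files. They hold the authors' fold (the ratio of summit pileup to local background), the authors' −log10 p- and q-values and a deposited score that is 10 times −log10 p, rounded down. Bowtie2 2.3.2, MACS2 2.1.1, deepTools 2.3.6 and build mm10 are named, per the submitters' processing notes. Handling of duplicate reads, of the transposase offset and of filters is not given in the sources used here. Peak numbers run along the genome with gaps: 58.2% to 75.9% of the numbers of a list are present, so a peak that is not listed is not always a site without signal.

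Genes were taken from RefSeq GRCm38.p6 (49943 on chromosomes 1 to 19, X and Y), whose primary assembly is mm10. A peak counted for a gene when it shared 1 bp or more with the gene and 5 kb on either side. A stage was called for a gene only when both of its libraries listed such a peak. Base pairs under peaks were compared between stages by an exact permutation test (2-sided by construction) over all 38811 genes with a peak, adjusted by the Benjamini-Hochberg method. Summit pileups (reads stacked at the summit) were recovered from the fold and −log10 p, and the most frequent expected pileup of a list (2.327 to 8.322) was taken as the background pileup of that library. The method was tested on simulated data. Calculations used Python 3.11.15, numpy 2.4.6, pandas 2.3.3 and scipy 1.17.1.

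The replicates of DAY3 and of DAY9 differed by 1.33 and 1.42 times the counting noise, against 3.63 to 8.04 for the other stages and 3.89 to 31.24 for pairs from different stages. Each of those 2 pairs was averaged to 1 sample in the test, which left 8 samples and 420 arrangements. The noise was measured at peaks with pileups of 100 to 200. Peaks at the Krt18 start had pileups of 11 to 47, so the measure does not cover them. The members, lists and tests were chosen with earlier results of these data known. The genes named are Krt8 and Krt18, members with a peak in both libraries of at least 1 stage, those gained or lost against MEF, some without any peak, and from other lists up to 4 gained or lost in ESC against MEF. Other genes named with values (Krt6a, Ovol1, Krtdap, Flg, Hand1, Smarce1 and 4 keratin associated proteins) were chosen after their values were seen.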

Additional observations from a re-analysis of the deposited data

How the results depend on the processing

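Outside the settings that leave out a library, 128 values stayed the same and 24 moved. Same means that no count changed by over 1.5 times and no test crossed its threshold. The 128 include the counts of calls with the replicate number as a block, which could not change because the block enters only the test. They also include the tests of Krt8, Krt18 and Krt5 and the count of members by adjusted p. These had little room to move, since the lowest adjusted p of all genes was 0.353 in the main setting. Against MEF, ESC had 4 keratins gained and 7 lost. These were 5 and 3 with windows of 2.5 kb and 3 and 3 with lists of equal length. With a score of at least 133, or with each peak given to its nearest gene, they were 4 and 3. DAY9 kept the highest count of keratins (19 to 33) in every setting, and the 0 gained and 6 to 10 lost genes of ESC against DAY9 stayed in that range. With windows of 2.5 kb, skin keratins called in MEF were 7, genes lost in DAY9 against MEF 1 and genes lost in ESC against MEF 3. With 10 kb, skin keratins called in ESC were 12 and genes of DAY9 without MEF or ESC 2. With lists of 45497 peaks, the counts were 8 in MEF, 7 in ESC, 5 skin keratins in MEF, 3 lost in ESC against MEF and 5 members at an unadjusted p under 0.05. With a score of at least 133, they were 8 in MEF, 6 in DAY3, 7 in DAY6, 7 in ESC, 5 skin keratins in MEF, 11 gained in DAY9 against MEF, 3 lost in ESC against MEF and 5 at an unadjusted p under 0.05. With each peak given to its nearest gene, they were 11 in MEF, 6 in DAY3, 7 skin keratins in MEF, 1 lost in DAY9 against MEF and 3 lost in ESC against MEF. With base pairs divided by the total under peaks in the library, 4 members had an unadjusted p under 0.05. The cause of these moves was not tested.

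Leaving out 1 library in turn, so that its stage is called from the other alone, gave ranges of 17 to 24 keratins in MEF, 11 to 17 in DAY3, 20 to 23 in DAY6, 25 to 28 in DAY9 and 13 to 19 in ESC. Skin keratins were 12 to 19 in MEF, 20 to 21 in DAY9 and 6 to 11 in ESC. Genes gained and lost were 6 to 11 and 3 to 8 in DAY9 against MEF, 4 to 6 and 7 to 13 in ESC against MEF, and 0 to 1 and 9 to 12 in ESC against DAY9. Genes of DAY9 without MEF or ESC were 4 to 5, and such regions 10 to 14. Members at an adjusted p under 0.05 were 0 to 0 and at an unadjusted p under 0.05 they were 3 to 8. Leaving out MEF replicate 1 gave the largest moves, with 24 keratins called in MEF and 19 skin keratins. Without DAY3 replicate 1 the DAY3 count was 17, and without ESC replicate 1 the ESC count was 19, with 11 skin keratins, 6 genes gained against MEF and 10 lost; without ESC replicate 2 it was 17, with 9 skin keratins. With the replicate number as a block, Krt8 had 95.1% of the sum of squares between stages, Krt18 56.8% and Krt5 97.4%. Deviations of same-numbered libraries correlated by -0.069 to 0.062, so the numbers do not pair the samples. The test is limited by 8 samples, and calls by the list lengths and missing peak numbers.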

Other observations

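Keratin associated proteins form the matrix around the hair keratins, and part of their genes lies inside the type I keratin cluster. Of 56 such genes, 4 were called in both MEF libraries, 1 in DAY3, 4 in DAY6, 6 in DAY9 and 7 in ESC. Against MEF, 6 were gained and 4 lost in DAY9 (over all genes 6.4% were gained and 3.93% lost), and 6 gained and 4 lost in ESC (over all genes 7.16% and 3.54%). The lost genes were the same in both comparisons, which share the MEF libraries: Krtap1-3, Krtap1-4, Krtap1-5 and Krtap2-4. Krtap1-4 had 1645 and 1449 bp under peaks in MEF and Krtap1-5 had 1164 and 1114 bp, and neither had a peak in any other library. These are not separate losses: windows of neighbouring genes share peaks, and the values of Krtap1-4 equal the sums of Krtap1-3 (481 and 335 bp) and Krtap1-5. Krtap3-3 was listed in DAY9 alone, with 348 and 421 bp, as was Krtap27-1, with 349 and 410 bp. Krt6a, a stress keratin whose symbol ends in a letter and which the naming rule leaves out, had no peak in MEF, DAY3 or ESC, 423 and 520 bp in DAY6 and 715 and 714 bp in DAY9.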
